A study of Mus musculus with 2 samples.

Results

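Reads that crossed a gap in the genome at a place where the gene models show no intron were examined in whole brains of mouse embryos at E17.5 (embryonic age in days). Both embryos were F1 hybrids of the inbred strains C57BL/6J and CastEi/J. The BxC library came from an embryo with a C57BL/6J mother and a CastEi/J father, and the CxB library from the reciprocal cross, so the embryos carried the same pair of genomes and differed in which parent gave each. There was 1 library per cross, each made from the polyA+ RNA of 1 brain without pooling, and no treatment or engineered allele in either. The methods describe a single CxB brain, a male, and do not say which BxC brain is behind the BxC library. Members were chosen on their reads: an autosomal gap had to match no intron of GENCODE vM1, which uses the same mm9 build as the alignments, and to hold at least 3 reads in each library. This left 3547 gaps of the 20772 unannotated gaps seen in either library (17.1%), and of 167204 autosomal gaps in all. Of the 146432 annotated introns seen in either library, 104040 (71.1%) met the same minimum. These numbers and the read counts below follow from the rule and are a description.

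An intron is removed from a transcript between a donor site, almost always the letters GT, and an acceptor site, almost always AG. In the brain, alternative splicing is especially rich. Exons are joined or skipped, neighbouring donors or acceptors compete, and very short exons, called microexons, are included in neurons. Regulators such as the Ptbp, Nova, Rbfox, Celf and Mbnl proteins direct these choices.

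The gaps were sorted by whether their ends lay at an annotated exon edge. Both ends lay at edges of 1 gene in 1115 gaps (8.01% of the 13928 such gaps seen in either library met the minimum), one end in 913 (38.4% of 2376) and neither in 1515 (34.1% of 4449). In 4 more, the ends lay at edges of 2 different genes (21.1% of 19). The letters at the ends were compared with those of a splice junction. An end at an annotated edge brings its letters with it, so the classes with such ends had to score high. Free ends and the class with neither end are not fixed in this way by the models used here. They could still bring their letters from the gene models that the study aligned to, so the letters are no independent check of the name splice junction. Letters GT and AG, GC and AG, or AT and AC stood at the ends of 98.2% of gaps with both ends in 1 gene (exact Clopper-Pearson interval 97.2 to 98.9), of 89.8% of gaps with one end (87.7 to 91.7) and of 44.8% of gaps with neither (42.2 to 47.3). Annotated introns had them in 99.9%. Where a gap lay in no gene, either strand was allowed to supply the letters. The members are therefore called unannotated gaps here, and 2597 of the 3547 (73.2%, 71.7 to 74.7) had the letters of a splice junction. One alignment in the study's methods was to gene models, to junction sequences of those models and to the genome, but which alignment was deposited is not stated, and the gaps were not checked against its models. A gap is called unannotated because it is absent from the models used here, and a place without a gap tells nothing.

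Some of the sequences that carry the results are shown first. Exons of at most 30 bases that a gap skipped are printed from mm9 in the direction of transcription, each with 10 bases of intron on either side in lower case and the exon in capitals:
Srcin1, chr11:97403848-97403871: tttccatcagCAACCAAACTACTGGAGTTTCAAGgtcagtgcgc
Agrn, chr4:155542655-155542678: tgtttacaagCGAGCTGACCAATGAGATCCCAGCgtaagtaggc
Dctn1, chr6:83136422-83136439: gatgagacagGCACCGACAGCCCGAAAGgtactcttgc
Ank2, chr3:126682174-126682185: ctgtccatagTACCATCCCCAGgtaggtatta
The next set shows the reverse case, exons that the gene models lack and that were bounded by 2 of the gaps, in the same format:
Ank3, chr10:69443572-69443598: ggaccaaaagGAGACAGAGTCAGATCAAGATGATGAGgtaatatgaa
Ncam1, chr9:49358645-49358674: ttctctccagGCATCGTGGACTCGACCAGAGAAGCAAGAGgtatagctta
Dnm3, chr1:164005906-164005917: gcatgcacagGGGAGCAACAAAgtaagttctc
Robo2, chr16:74009020-74009031: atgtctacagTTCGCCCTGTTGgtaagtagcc

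Neighbouring acceptors made up the next set. At each, an annotated acceptor and an unannotated one lay 3 bases apart, and both AG pairs are in capitals, again in the direction of transcription:
Ewsr1, chr11:4979516-4979545: ttcttcgtttatccccccAGcAGcgctgga
Ptbp2, chr3:119423369-119423398: atttcataattttgtttcAGaAGagatcac
Midn, chr10:79617056-79617085: atttgccaatctcccaccAGcAGatggact
Rbm8a, chr3:96434380-96434409: tctggtatgaattcttttAGaAGaggggtc
The last set shows 2 very short gaps among those with the most reads, with the letters inside the gap in capitals and both on the minus strand:
Srpk1, chr17:28726315-28726341: ttgttttttttGTTGTttttttttttt
near AY036118, chr17:39980520-39980549: cctacgcacagGCGCACAGgcgtactagtg

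The libraries held 128944754 reads (BxC) and 109719746 reads (CxB), of which 6.47% and 6.20% crossed a gap. The 3547 members took 241102 reads in BxC and 198781 in CxB, 2.98% and 3.01% of all reads over autosomal gaps. A few gaps held many of them: the 10 highest took 36.6% of member reads in each library, and the 5-base gap in Srpk1 alone took 19.5% and 20.2%. Without it, members took 2.40% of gap reads in each library. Most members were shallow, with medians being 13 (BxC) and 11 (CxB) reads, against 22 and 19 for annotated introns that met the minimum. Neuronal genes were well covered over annotated introns (Tubb3 2054 and 1734 reads, Mtap2 10084 and 7278), and the progenitor genes ranged from Fabp7 (1549 and 1162) over Pax6 (455 and 416) to Nes, which held only 65 and 70. Markers of muscle (Ckm 17 and 12, Myh3 31 and 13) and liver (Alb 0 and 11, Afp 2 and 1) held few reads, Krt5 of skin was at 0, and the cartilage collagen Col2a1 held 296 and 270 reads. The intronless Sox2 cannot be seen this way, and the blood genes Hba-a1 and Hbb-b1, which have near-identical copies, held 0 reads.

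**Figure D1:**
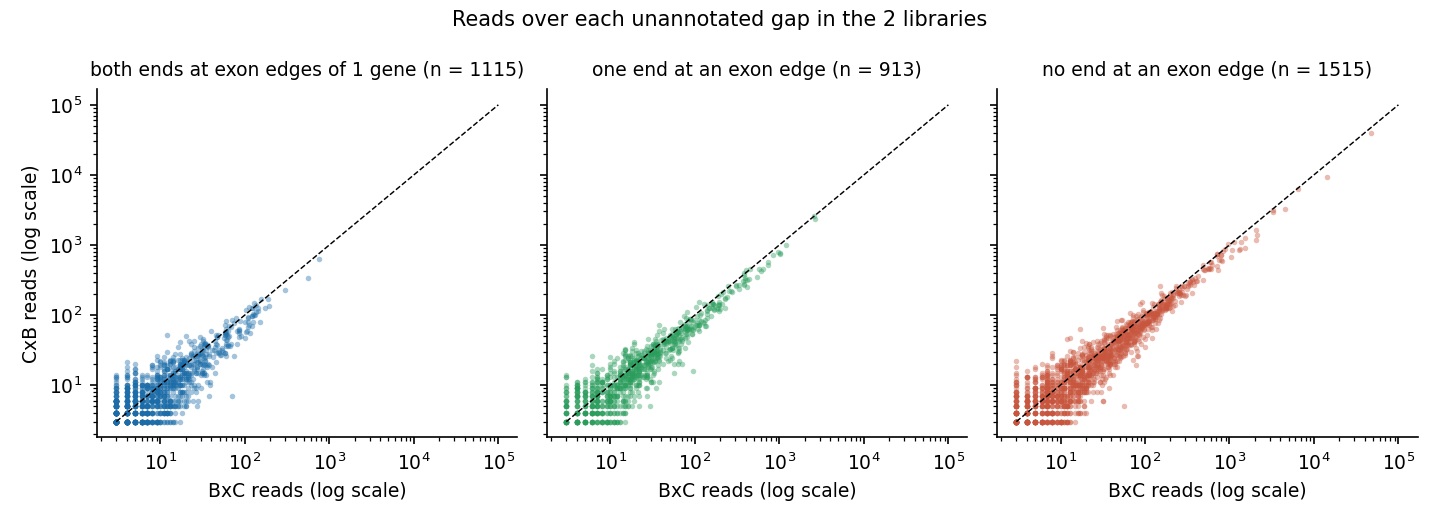
Reads over each unannotated gap in BxC (horizontal) and CxB (vertical), on log axes, in a panel each for gaps with both ends, one end and no end at an annotated exon edge; the dashed line marks equal reads. Points follow the line in all 3 classes, and the highest point, in Srpk1, stands at 46928 and 40098 reads.

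Gaps with both ends in 1 gene were mostly exon skips. Of the 1115, 1085 left out whole annotated exons of 1 transcript: 1 exon in 911, 2 in 170 and 3 in 4. One alignment in the study's methods offered junctions with at most 2 skipped exons, which would set these numbers if it is the one deposited. The other 30 joined edges that no single transcript held in that order. The median gap of the class was 5354 bases (4742 to 6047), against 1334 for annotated introns. A skip spans an exon and the introns on both of its sides, so longer gaps follow from the class. The skipping share is the reads over the skip divided by these reads plus the mean of the reads over the annotated junctions at its donor and at its acceptor. All annotated junctions at these edges count, also those to other exons and those that leave out the same exon. A low share can therefore reflect such junctions as well as inclusion of the exon. The median share was 10.9% in BxC (9.26 to 12.8) and 12.6% in CxB (10.99 to 14.5). For 680 skips, the skip and this mean together reached 50 or more reads in both libraries. There the median was 4.84% (4.02 to 5.46) and 5.02% (4.50 to 5.80). The median depends on the read minimum: over both libraries it was 11.9% as reported, 24.7% with at least 10 reads per library over the skip and 27.9% when distinct positions were counted. The share was below 10% in both libraries for 446 of the 680 and above 50% in both for 41.

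The skip with the most reads lay in Klc1, which encodes a light chain of the motor protein kinesin. It left out an exon of 162 bases and held 749 reads in BxC and 624 in CxB, but these began at only 3 positions in each library. Its share was 79.0% (76.3 to 81.6) and 77.7% (74.6 to 80.4). In Srcin1, a signalling adaptor enriched at synapses, the 24-base exon printed above was skipped by 194 and 136 reads at 32 and 27 positions, a share of 68.4% (62.6 to 73.7) and 66.8% (59.7 to 73.1). In Sp2, a transcription factor, a gap of 14179 bases joined edges of different transcripts with 555 and 334 reads. Pacsin2, which shapes membranes in endocytosis, held a gap with 302 and 226 reads whose letters were GT and AC, outside the canonical pairs. In Apc, a scaffold of the Wnt pathway, a 153-base exon was skipped by 189 and 169 reads, a share with intervals of 47.3 to 57.9% in BxC and 51.2 to 62.8% in CxB. In 4 of these genes the intervals of the shares overlapped between the libraries. Sp2 has no share, and its log2 ratio of CxB to BxC reads, each divided by the reads of its library, was -0.50 (-0.70 to -0.30).

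In some genes the annotated junctions at the edges of the skip were hardly used. The skip of a 373-base exon of 2610005L07Rik held 79 and 91 reads. No read crossed an annotated junction at its donor or acceptor, so its share was 100% in both libraries. Unannotated gaps that may join the exon are not counted in this share. In Serpinh1, a collagen chaperone, the skip of a 44-base exon held 153 and 167 reads, or 97.5% and 98.2%. Zfand6 (161 bases, 97.6% and 96.4%), Mycbp2 (108 bases, 95.0% and 97.4%), Pde4dip (186 bases, 94.7% and 93.2%) and Bin1 (108 bases, 91.3% and 95.4%) were alike. In Cacna1a, the pore of P/Q-type calcium channels, a 36-base exon was skipped by 129 and 100 reads, or 95.9% (91.5 to 98.8) and 94.8% (88.1 to 97.9). In 2610318N02Rik a 143-base exon was skipped at 98.8% and 99.2%. The values for Arhgef25 (94.1% and 96.1%) rested on 4 and 5 positions, and counted by distinct positions its mean share was 56.1% in place of 95.1%. Counted in this way, the mean share of Cacna1a was 81.8% in place of 95.3% and that of Serpinh1 91.9% in place of 97.8%. The other skips of this paragraph stayed within the range of their intervals. The gap in Gm10038 (100% in both) had the letters GC and TT. It spanned 141 bases, of which the exon took 135, so hardly any bases were left for introns beside it. It may thus be no exon skip.

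Among the 680 skips, the intervals of the 2 libraries did not overlap for 22 (3.24%), near the 2.79% of 1253 annotated exon skips with the same read minimum. The widest of these was 2210018M11Rik, where a skip of 2 exons held 70 reads in BxC and 7 in CxB, a share of 55.8% (46.4 to 64.4) against 13.2% (5.48 to 25.3). Ap1ar, an adaptor of vesicle transport, also had the higher share in BxC, 71.6% against 53.6%. Higher in CxB were Pisd, the mitochondrial enzyme that makes phosphatidylethanolamine (51.3% against 68.9%), Klhl24 (19.7% against 40.8%), Smarce1, a subunit of a chromatin remodeller (10.6% against 30.99%), and Eml1 (6.64% against 23.1%). With 1 library per cross, a difference between crosses cannot be told apart from one between 2 embryos or 2 library preparations, and the intervals cover counting error only.

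**Figure D2:**
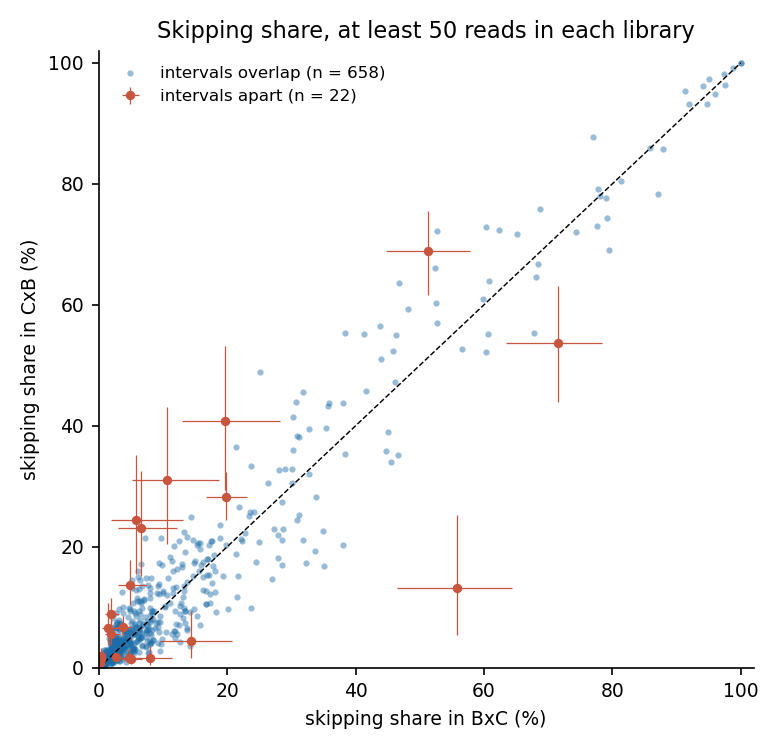
Skipping share in BxC (horizontal) and CxB (vertical) in percent, one point for each of the 680 skips with 50 or more reads per library. Red points with 95% Clopper-Pearson intervals mark the 22 whose intervals do not overlap. Most points lie near the dashed line of equal shares and below 10%, and 2210018M11Rik lies far below the line at 55.8% and 13.2%.

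Removing an exon keeps the reading frame only when its coding bases are a multiple of 3. Single coding exons that were skipped kept the frame in 283 of 620 cases, 45.6% (41.7 to 49.7), against 40.7% of the 126756 internal coding exons of the gene models. For 2 skipped exons it was 58 of 121, 47.9% (38.8 to 57.2), against 41.7% of neighbouring pairs. The share in frame was higher among skips with a higher skipping share. Among coding skips with 50 or more reads per library it was 40.1% (34.7 to 45.6) for 327 skips with a share under 10%, 54.3% (44.3 to 64.0) for 105 skips between 10% and 50%, and 64.3% (44.1 to 81.4) for 28 skips over 50%. The first of these intervals overlapped each of the others at its edge, and the second and the last overlapped widely. The rise was not tested. When only introns of protein-coding transcripts counted as annotated, the share over all coding skips was 40.7% in place of 45.8%, no different from internal coding exons. Skipped exons of at most 30 bases stood apart: 27 of 32 kept the frame, 84.4% (67.2 to 94.7), against 58.2% (56.2 to 60.3) of the 2261 annotated coding exons of that length.

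**Figure D3:**
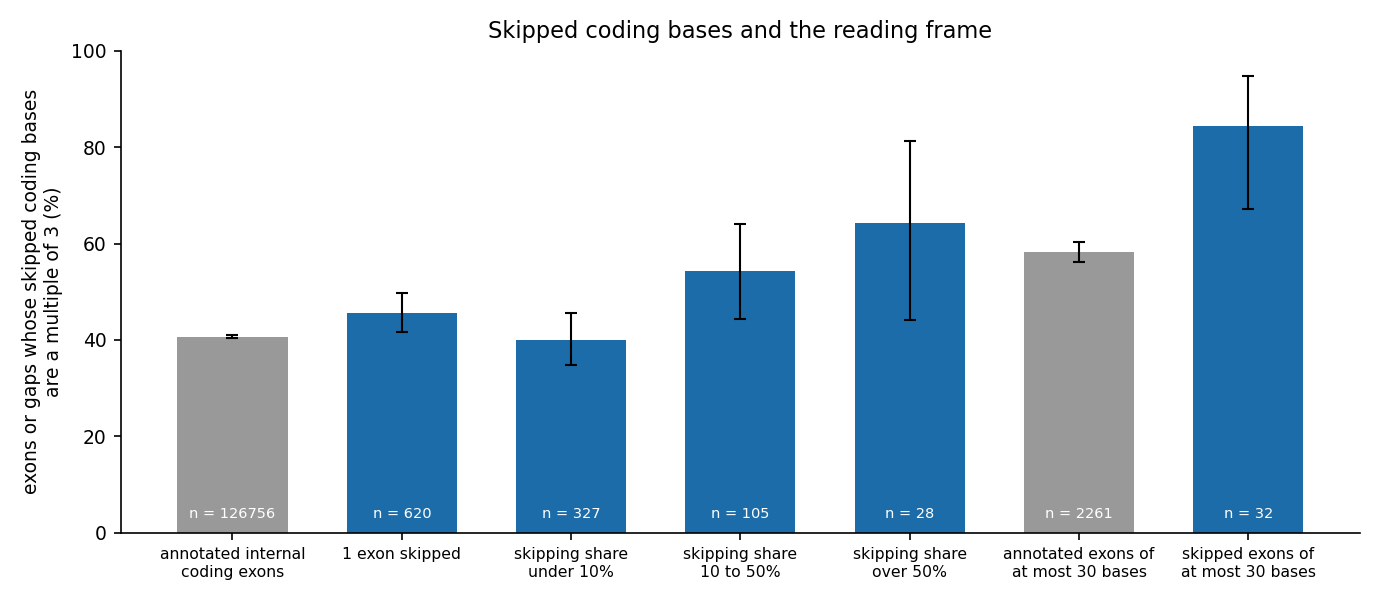
Share of skipped coding exons, or of annotated internal coding exons (grey), whose coding bases are a multiple of 3, with exact 95% intervals and the number of exons or gaps in each bar. Skips with a skipping share under 10% sit at 40.1%, near the 40.7% of all internal coding exons. Skipped exons of at most 30 bases sit at 84.4%.

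Among these short exons, Dctn1, a subunit of the dynein partner dynactin, had its 18-base exon skipped by 61 reads in BxC and 51 in CxB, a share of 16.8% and 15.4%. Ahi1, a protein of the primary cilium, had a 27-base exon skipped by 58 and 29 reads (31.8% and 21.1%). In Agrn, whose neuronal exons give agrin its strength in clustering acetylcholine receptors at the neuromuscular junction, the 24-base exon was skipped by 27 and 17 reads (11.8% and 9.37%). The 12-base exon of Ank2, an ankyrin that ties membrane proteins to the cytoskeleton, was skipped by 14 and 10 reads (16.2% and 12.8%). The 18-base exon of the receptor phosphatase Ptprk was skipped at 78.3% and 75.0% on 9 and 12 reads. The 21-base exon of Ptprz1 was skipped by 9 and 13 reads, with intervals of 32.3 to 83.7% and 34.5 to 76.8%. In these genes the intervals of the libraries overlapped. They did not in Supt5h, an elongation factor, whose 12-base exon was skipped by 3 reads in BxC and 13 in CxB, at 5.61% (1.16 to 15.4) and 41.9% (24.5 to 60.9). In Nbea, on 16 and 6 reads, the 9-base exon was skipped at 94.1% (71.3 to 99.9) and with an interval of 21.1 to 78.9%. In Sema6a, on 5 and 12 reads, the 21-base exon was skipped at 7.19% (2.36 to 15.9) and 21.4% (11.6 to 34.4). The files hold no line with more than 2 blocks and no block under 5 bases, so a read that crossed both junctions of a short exon is missing, and inclusion of such exons was undercounted. Scaled for the read offsets that remain, the shares were lower. The scaling was applied to all annotated reads at both edges, also to reads that may join other exons, so it can correct too far. In Ank2, for example, the edges held 8 and 137 such reads in BxC and 5 and 131 in CxB. They were 61.6% and 59.9% in Srcin1, 28.4% and 18.5% in Ahi1, 9.03% and 7.11% in Agrn, and 9.49% and 8.63% in Dctn1. Of the shortest exons, Ank2 came to 5.41% and 4.18%, Supt5h to 1.73% and 17.6%, and Nbea to 74.8% and 15.6%. The exon of Sept7 has 2 bases and could not be scaled.

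Gaps with one end at an exon edge had a free acceptor in 464 cases and a free donor in 449. Canonical letters stood at 83.6% of the gaps with a free acceptor (79.9 to 86.9) and at 96.2% of those with a free donor (94.0 to 97.8). Splice-site strength was scored as the sum over 9 donor and 23 acceptor bases of the log2 ratio of each letter's frequency in annotated introns to an even frequency, for gaps with GT and AG. Free acceptors had a median score of 7.49 (6.98 to 7.84), below the 9.61 of annotated introns, and 30.2% of them scored below the 10th percentile of annotated acceptors. Free donors had a median of 7.91 (7.36 to 8.10) against 8.37. The anchored ends of the same gaps scored 8.60 for donors and 10.4 for acceptors.

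The free acceptors gathered at 1 distance. Of the 464, 229 lay within 30 bases of an annotated acceptor, 190 of these at a multiple of 3, and 137 exactly 3 bases away. Free donors showed no such peak: 109 lay within 30 bases of an annotated donor, 52 at a multiple of 3, 7 at 3 bases and 15 at 4. For 134 of the 137 acceptors, the gap shared its donor with an annotated intron that ended at the neighbouring acceptor, and 129 of these (96.3%, 91.5 to 98.8) had canonical letters. The exon became 3 bases shorter in 91 and longer in 43. In the 62 pairs that had 50 or more reads per library, the unannotated acceptor took a median of 23.3% (15.9 to 37.3) of the pair's reads in BxC and 25.6% (17.48 to 34.8) in CxB. It took under 10% in both libraries in 14 pairs and over 50% in both in 15.

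**Figure D4:**
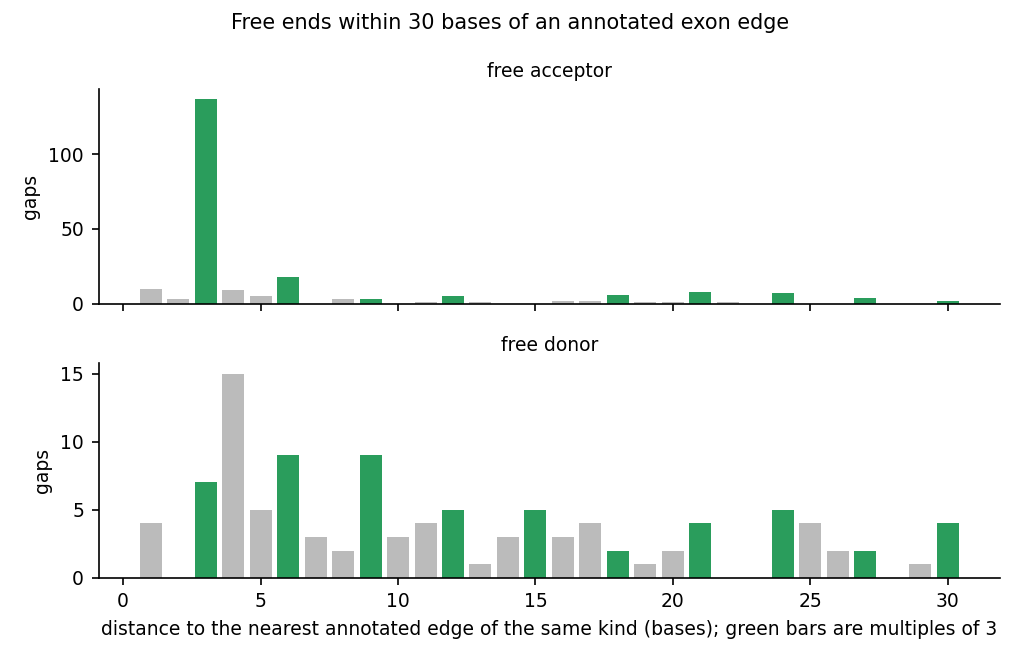
Number of gaps by the distance in bases between the free acceptor (top) or free donor (bottom) and the nearest annotated edge of the same kind, up to 30 bases, with multiples of 3 in green. A single bar of 137 acceptors stands at 3 bases, while donors are spread, with 15 at 4 bases.

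In Cuedc2, the unannotated acceptor held 736 reads in BxC and 568 in CxB against 1622 and 1285 at the annotated one, a share of 31.2% (29.3 to 33.1) and 30.7% (28.6 to 32.8). Midn gave 39.6% and 38.2% on 729 and 515 reads. Rbm8a, a core protein of the exon junction complex, gave 58.5% (54.7 to 62.2) and 56.2% (52.6 to 59.7) on 397 and 441 reads. In Ewsr1, an RNA-binding protein of the FET family, it was 34.0% (31.2 to 36.9) and 34.8% (32.0 to 37.7) on 377 reads in each library. These 4 pairs kept their balance between the libraries to within 3 percentage points. Ptbp2, the neuronal polypyrimidine tract binding protein, gave the 1 pair of the 62 with intervals that did not overlap (background: 2.71% of 258 pairs of annotated introns that shared an end and lay within 30 bases at the other), with 330 reads against 217 at the annotated acceptor in BxC (60.3%, 56.1 to 64.5) and 232 against 229 in CxB (50.3%, 45.7 to 54.98). In Celf3 the share was 68.7% and 74.4% on 90 and 64 reads. In Ncam1, the neural cell adhesion molecule, it was 15.2% and 11.3% on 113 and 73 reads.

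Acceptors at other multiples of 3 were fewer. In Tnpo2, a nuclear import receptor, an acceptor 30 bases into the exon held 1190 and 993 reads, 72.6% (70.3 to 74.7) in BxC and 66.7% (64.3 to 69.1) in CxB. In Serbp1 the acceptor 18 bases away took 68.6% (63.7 to 73.3) and 81.3% (76.1 to 85.8). In Elavl3, a neuronal RNA-binding protein, the acceptor 21 bases away took 64.9% (54.6 to 74.4) on 63 reads and 30.8% (19.9 to 43.4) on 20. Psap, whose product is cut into the saposins, had an acceptor 6 bases away with the letters TT at 35.0% (25.8 to 45.0) and 62.2% (50.8 to 72.7). Across the 20 pairs of this kind with at least 50 reads, these were the 4 with intervals that did not overlap, against the same 2.71% of annotated pairs; the difference was not tested.

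Some of the highest read counts with one end were at free ends further off. In Stx7, a syntaxin of endosomes, 2607 and 2306 reads used a donor 318 bases from the nearest annotated donor, in ggcgaggtcaggGTaagaggagac, with its GT in capitals, at chr10:23869203-23869226. Fkbp2, a chaperone of the endoplasmic reticulum, held 1014 and 778 reads at an acceptor 36 bases from the annotated one, and Ubap2l 1016 and 742 at a donor 65 bases away. These 3 gaps had GT and AG, and their reads began at 27 to 51 positions.

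Free acceptors and free donors of 1 gene could also face each other and so bound an exon. This search was added after values had been seen, with exons up to 500 bases. It gave 34 pairs of gaps and 31 exons with canonical ends, and for 29 of these exons, in 28 genes, the flanking edges were joined by an annotated intron, so that the gene models hold the form without the exon. Their median length was 53 bases, from 8 to 193, and 7 had at most 30 bases. Of the 19 between coding flanks, 15 had a length that was a multiple of 3 (78.9%, 54.4 to 93.9), against the 40.7% of internal coding exons given above. The inclusion share, the mean of the reads over the 2 gaps divided by that mean plus the reads over the annotated intron, ranged from 3.70% to 98.97% in BxC and from 2.49% to 96.0% in CxB among the 14 exons with at least 50 reads. The upper end was a 53-base exon of Sarnp with uneven sides, joined upstream by 190 and 142 reads but downstream by 3 in each library, against 1 and 3 reads over the intron. It was over 50% in both libraries for 4 of them.

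Ank3, which encodes the ankyrin of the axon initial segment, held 2 such exons. Its 27-base exon was joined on its upstream side by 195 reads in BxC and 114 in CxB and on its downstream side by 74 and 98, while 173 and 165 reads left it out, an inclusion of 43.7% (38.0 to 49.4) and 39.1% (33.3 to 45.2). The 33-base exon at chr10:69416188-69416220 stood at 69.4% and 76.3%. The 12-base exon of Dnm3, a dynamin of the synapse, was joined by 103 and 186 reads in BxC and by 129 and 188 in CxB, and 22 and 34 reads left it out, an inclusion of 86.8% (80.6 to 91.5) and 82.3% (76.1 to 87.4). In Robo2, a receptor for the axon guidance cue Slit, the 12-base exon stood at 48.7% and 54.3%. In Ncam1 the 30-base exon stood at 13.99% (8.76 to 20.8) and 11.8% (7.09 to 18.9). A 54-base exon of Mbnl1 stood at 77.4% and 95.3%, and a 26-base exon of Hnrnpc, whose length is no multiple of 3, at 58.1% and 69.7%. Inclusion of exons under 31 bases was undercounted here too. The intervals of the libraries were apart for 1 of the 14 exons (2.79% of annotated exon skips), 193 bases of the corepressor Ctbp1, with 63.9% (59.8 to 67.7) in BxC and 52.7% (48.4 to 56.9) in CxB.

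Gaps with no end at an exon edge were of several kinds. Of the 1515, 1040 lay outside genes, 163 overlapped a gene in part, 172 lay inside 1 exon, 88 inside introns, and 52 had an end within an exon. Canonical letters stood at 64.4% of those that overlapped a gene in part, 47.1% of those outside genes, 28.4% of those inside introns and 21.5% of those inside 1 exon. Their letters followed their length. Among gaps of 5 to 19 bases 5.92% (2.87 to 10.6) had canonical letters, from 100 to under 500 bases 39.1% (33.6 to 44.9), and from 10000 bases on 71.9% (66.2 to 77.1). Gaps under 50 bases numbered 285 in this class, 3 among the other members and 5 among the 104040 annotated introns. In 78 gaps of the class the letters of the gap were repeated beside it, so that it could slide by at least its own length without changing the joined sequence, against 1 annotated intron. One base made up at least 20 of the 30 bases beside the gap in 127 gaps of the class, 8.38%, against 0.0288% of annotated introns.

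**Figure D5:**
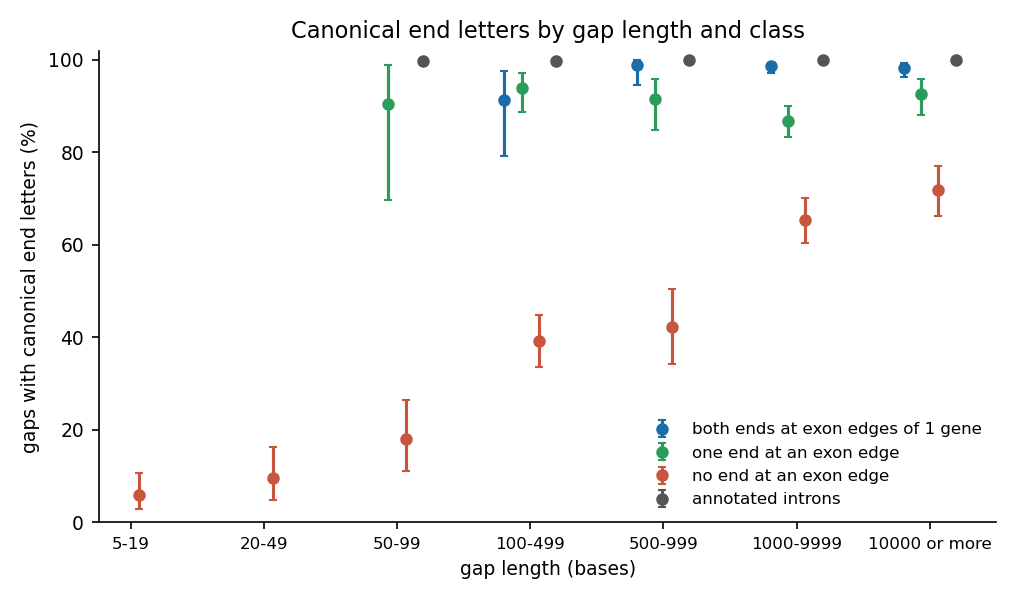
Share of gaps with canonical end letters in percent (vertical) by gap length in bases (horizontal), for the classes of unannotated gaps and for annotated introns, with exact 95% intervals; points with fewer than 20 gaps are not drawn. Gaps with no end at an exon edge rise from 5.92% at 5 to 19 bases to 71.9% from 10000 bases on, while annotated introns lie between 99.8% and 99.9% from 50 bases on.

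The gap with the most reads of all lay inside an exon of Srpk1, which encodes a kinase of splicing factors. It spanned 5 bases within a run of T, held 46928 reads in BxC and 40098 in CxB at 45 and 44 positions, and had the letters GT at both ends. The 8-base gap near AY036118 held 3262 and 3135 reads, and it could slide by 10 bases, more than its own length, although its ends, GC and AG, count as canonical. In the polyubiquitin gene Ubb a gap of 228 bases, the length of 76 codons and so of 1 ubiquitin unit, held 6418 and 6190 reads and could slide by 161 bases. The first 30 bases of that gap, gtggagcccagtgacaccatcgagaacgtg, stood again directly after it. In Ubb and near AY036118 the joined sequence cannot fix where the gap lies, while the gap in Srpk1 could slide by 1 base only.

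Among the other gaps of this class with many reads, some had the end letters of an intron and lay outside the genes used here. Whether they are introns was not tested. The gap at chr10:127985486-127985713 had GT and AG and held 14466 and 9194 reads at 43 and 42 positions. Its nearest gene here was Zc3h10, and RefSeq on GRCm38.p6 lists the ribosomal protein gene Rpl41 and the gene Gm9176 between the neighbours Zc3h10 and Pa2g4. The gap at chr9:31743866-31743994, next to Gm3756, had GT and AG and held 4508 and 3239 reads, at only 14 and 15 positions. Between its neighbours Barx2 and Arhgap32, RefSeq lists Gm3756 and Tpi-rs4. These lists name genes between neighbours and do not place the gaps in them. The 1203 gaps without a host gene fell into 804 loci when gaps within 10000 bases were joined, and 578 loci held 1 gap. A locus next to Srcap held 15 gaps, 14 of them with canonical letters, and one next to Usp29 held 7 of 7, while one next to Gm6594 held 16, of which 4 had them. The longest gaps spanned 1548725, 801273 and 747392 bases on chromosome 16, held 45 and 27, 61 and 42, and 38 and 14 reads, and the longest began where the second did and ended where the last did.

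In Apbb1, which encodes an adaptor of the amyloid precursor protein and is known for a neuronal exon of a few bases, neighbouring gaps differed by 6 bases. A gap of 397 bases with the letters GC and AC held 3258 and 2992 reads. A gap of 403 bases with GT and AG, whose ends lay 4 bases further out at the donor and 2 at the acceptor, held 215 in each library. The bases that only the 403-base gap removes are in capitals on the donor side, gcgggacagtggaagGTGGgcatgggagtc at chr7:112714550-112714579, and on the acceptor side, accctcccccaacAGggactttgcctacgt at chr7:112714147-112714176. Of these gaps, the one of 397 bases thus held most of the reads, and its end letters are not canonical. The annotated intron from the donor of the 403-base gap to an acceptor 6 bases away held 0 reads in each library. No line has more than 2 blocks, so a 6-base exon inside the gap could not be shown as such. Whether the 6 extra bases of these reads come from the edges of the gap or from inside it was not tested. Apbb1 and this pair of gaps were described after their values were seen.

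Levels were compared between the libraries over the gaps with at least 50 reads in both together, as the log2 ratio of CxB to BxC reads, each divided by the reads of its library. The rule set a minimum in both libraries, so a gap absent from 1 of them could not enter. Past 2-fold lay 47 of 1055 members, 4.45% (3.29 to 5.88), against 3.81% of annotated introns. In CxB 23 members were higher and 24 lower, 2.18% and 2.27%, against 1.77% and 2.04% of annotated introns. The median was -0.05 for members and -0.03 for annotated introns. When distinct positions were counted in place of reads, 136 members reached 50 and 0 of them lay past 2-fold (0 to 2.68%). Reads over a gap have only 27 possible offsets on each strand. The count of positions is therefore capped in each library, which limits how far the libraries can differ. Among the highest ratios were gaps in 2 maternally expressed noncoding genes of chromosome 12. Meg3 held 12 reads in BxC and 51 in CxB over a skip of 74 bases, a log2 ratio of 2.32. Rian held 17 and 63 over a gap of 1070 bases, a log2 ratio of 2.12, and another gap in Rian held 17 reads in each library, a log2 ratio of 0.23. Between them stood a gap near Cpsf2 with 12 and 46 reads. At the other end, a gap near A330076H08Rik held 56 and 5 reads (-3.25), the skip in 2210018M11Rik given above 70 and 7 (-3.09), and a gap in Pisd-ps1 94 and 16 (-2.32).

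Genes that held a gap numbered 1737, of which 1322 held 1 and 22 at least 5. Of the 12177 genes with an annotated intron at the minimum, 13.2% held a member, and this rose with depth, from 5.32% of genes under 100 annotated reads in BxC to 28.96% from 1000 on. Among regulators of splicing, 35 of 69 genes held a member, 50.7%, with a median of 1000 annotated reads per gene in BxC against 194 over all genes. Of their 69 gaps, 36 had both ends in 1 gene and 29 one end, and 62 had canonical letters. Hnrnpa2b1 held 7, among them 5 with both ends at exon edges. Skips with higher shares in neuronal regulators left out 81 bases of Rbfox1 at 29.1% and 32.9%, 51 bases of Rbfox2 at 21.8% and 15.3%, and 72 bases of Nova1 at 18.9% and 21.4%. Others had low shares, such as 40 bases of Rbfox1 at 3.11% and 2.73% and 240 bases of the same gene at 0.374% and 0.723%. Alike were 147 bases of Celf4 at 0.906% and 1.61% and 39 bases of Elavl4 at 3.16% and 2.35%. In Hnrpdl a 171-base exon was skipped by 40 and 59 reads, at 3.73% (2.68 to 5.05) and 6.76% (5.18 to 8.63), and is one of the 22 with intervals apart. In Celf4 a gap with a free donor 30 bases from an annotated one held 111 and 155 reads.

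Neuronal genes with textbook alternative splicing held a member in 25 of 62 (40.3%), with a median of 2038.5 annotated reads per gene in BxC. Besides Apbb1, Ank3, Cacna1a, Ncam1 and Agrn, Kif1b, a kinesin of axonal transport, skipped a 42-base exon at 87.8% and 85.8% on 130 and 100 reads. Camk2g skipped a 69-base exon at 64.6% and 66.7%. In App, the amyloid precursor, a gap that left out a 57-base exon held 59 and 57 reads, a share of 2.37% and 3.31%. Annotated junctions at the same edges that also leave this exon out count against the gap, so the share does not give the exon's inclusion. Of the ribosomal protein genes, 13 of 76 held a member (17.1%), 1 each, with a median of 2232 annotated reads per gene. Rpl6 skipped a 49-base exon at 3.18% and 4.95%. The most-read of their gaps lay in Rps24, with 65 reads in each library at 4 positions. Since genes with more reads hold more members and the lists differ in depth, the part of depth in these shares was not tested.

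Clustered protocadherins are neuronal adhesion proteins whose variable first exons are each joined to shared constant exons. Of 25 symbols in the gene models, 2 had an annotated intron at the minimum, Pcdhgc5 and Pcdha11, and both held members, 17 in all. In Pcdhgc5 there were 12, the most of any gene, and all ran from a free donor upstream to the same acceptor, over 70827 to 160655 bases. A gap with one annotated end is counted for the gene that holds this end. The rank of Pcdhgc5 thus reflects which gene model carries the shared acceptor. The highest in BxC held 93 reads there and 53 in CxB, the highest in CxB 43 and 64, and the lowest in BxC 4 and 9. The reads were thus spread over many donors, and the order of the donors was not the same in the libraries. In Pcdha11, 3 gaps likewise ended at 1 acceptor, and a gap from Pcdha3 to that acceptor, with 20 and 22 reads, is one of the 4 that joined 2 gene models. The others lay between 2 gene models of the symbol Nkain2 (9 and 16), Trbj2-7 with Trbc2 of the T cell receptor beta locus (11 and 7), and Gm16669 with Trac (3 and 9).

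The deposited catalog of imprinted genes has 128 entries, 63 of whose names were found in the gene models as written; entries under other names or spellings, such as that of Cdkn1c, were not matched. Matched genes held a member in 7 of 42 (16.7%), near the 13.2% of all genes, with a median of 266 annotated reads per gene in BxC. In Ube3a, the ubiquitin ligase of Angelman syndrome, a 67-base exon was skipped by 66 reads in BxC and 36 in CxB. The share had intervals of 22.9 to 35.01% and 16.7 to 30.5%. Its sides were uneven: annotated junctions held 323 reads at the donor and 6 at the acceptor in BxC, and 236 and 5 in CxB. The share thus depends on which side is counted. A gap of 72471 bases from a far upstream donor into Snrpn held 50 and 23 reads. Of the gaps in Meg3, a skip of 106 bases held 8 and 19 reads, at 23.5% and 64.4%, and a skip of 84 bases 8 and 10, at 2.10% and 2.51%. The differences between these gaps were not tested. Zdbf2 skipped a 106-base exon at 78.0% and 76.9% on 16 and 5 reads.

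At the minimum itself, 568 members held exactly 3 reads in the lower library, among them a gap in Ube2w with 3 and 3 reads. Just outside it, 1031 gaps held exactly 2, among them one in Stau2 with 4 and 2. A further 1804 unannotated gaps held at least 3 reads in 1 library and none in the other, 1033 of them in BxC and 771 in CxB, and a count of 0 allows up to 3 reads.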

How the data were processed

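The 2 deposited alignment files list uniquely aligned 36-base reads in mm9 coordinates. Per the study's methods, the authors aligned with Novoalign (version not given in the sources used here) to merged UCSC gene models, junction sequences of those models and the genome; which of the described alignments was deposited is not stated. The fourth column of the deposited files holds a whole-number count on each line, which was read as how many identical reads a line stands for; no source names that column, so this was inferred from the values. Strand was ignored: the methods describe dUTP libraries that keep strand, but at annotated introns only 54.3% and 54.9% of reads lay opposite to the gene. The deposited catalog of imprinted genes was used for names only.

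Gaps were taken from lines with 2 blocks (columns 10 to 12) and compared with 243303 introns of GENCODE vM1, with Python 3.11.15, pandas 2.3.3, scipy 1.17.1 and pysam 0.24.0. Letters were read from the mm9 genome. RPM (reads scaled to library size) used all reads of a library. With 1 library per cross no test was made. Shares carry Clopper-Pearson intervals at 95%, which cover counting error only, and medians order-statistic intervals, which reflect the spread between gaps. For skipping and inclusion shares a rounded mean of 2 counts enters the interval, so it is approximate. Intervals of read shares also take identical reads as independent, and are too narrow where they are not. The shares of repeat-masked bases that had been planned were not computed, as the genome text carries no mask. Steps were tested on simulated data. Named are the 5 highest gaps by mean RPM in each class, the 10 highest skipping shares, the longest and shortest gaps, the highest and lowest ratios, the hosts with most members and the top 3 of each gene list, plus short skipped exons, neighbouring sites, new exons and gaps with intervals apart, chosen after values were seen. One gap that this rule names is not reported here. The members and lists were chosen with earlier results of these data known.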

Additional observations from a re-analysis of the deposited data

Results flagged for a closer look

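Chromosome X was outside the rule, and 109 unannotated gaps there held at least 3 reads in each library, a signal in data that no comparison above used. Of these, 68 had canonical letters, and together they held 10031 reads in BxC and 9047 in CxB.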

How the results depend on the processing

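As reported, there were 3547 gaps, 73.2% had canonical ends, 31.5% had both ends at exon edges, the median gap was 2250 bases, 45.8% of coding skips kept the frame, the median skipping share over both libraries was 11.9%, 4.45% lay past 2-fold and the median number of read positions was 6. With at least 5 reads per library, 68.9% were canonical, 26.1% had both ends, the gap was 1928.5 bases, 50.5% kept the frame, the skipping share was 16.7% and positions 8. With at least 10, there were 1733 gaps, 64.9% canonical and 20.5% with both ends, with a gap of 1638, 52.3% in frame, a skipping share of 24.7% and 11 positions. Counting distinct positions gave 70.2% canonical, 26.7%, 1969 bases, 50.5%, 27.9%, 0% of 136 gaps past 2-fold and 7 positions, in the same order. At least 8 bases in each block gave 29.1% with both ends, a skipping share of 14.6% and 8 positions. Gaps of at least 50 bases gave 79.0% canonical, 34.3% and 2835 bases. Reads on the major strand alone gave 2055 gaps, 68.2%, 26.96% with both ends, 1748 bases, 17.8% and 8 positions. Introns of protein-coding transcripts alone gave 78.9%, 46.2%, a frame share of 40.7%, equal to that of internal coding exons, and a skipping share of 14.7%. Inclusion as the larger side gave 8.57%. Scaling inclusion for read offsets, an alternative chosen after seeing the data, gave 11.5%. No paired analysis was possible because each cross has 1 library. The cause of these shifts was not tested beyond what each setting leaves out.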
